A study of Mus musculus with 42 samples.

Results

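The ligand and receptor genes of the PACAP and BDNF signalling systems were examined in 4 mouse hypothalamic nuclei. The members are 4 of the 37907 genes in the expression table, chosen by symbol: the ligand Adcyap1 and its receptor Adcyap1r1, and the ligand Bdnf and its receptor Ntrk2. All 4 were among the 33579 genes tested, which had at least 1 RPKM in at least 4 libraries. The mice were adult wild-type males of the strain C57/BL6, and no group carried a transgene or received an agent. Food was freely available to the fed mice and was withheld for 24 hours from the fasted mice. The arcuate nucleus (ARC), ventromedial hypothalamus (VMH), dorsomedial hypothalamus (DMH) and paraventricular nucleus (PVN) were each collected by laser capture, a dissection of tissue sections under a microscope, and gave 42 libraries. The labels do not tie libraries to mice, although the nuclei share mice, and p-values below treat libraries as separate samples. There were 5 fed and 5 fasted libraries for the ARC, 6 and 6 for the VMH, 5 and 4 for the DMH, and 6 and 5 for the PVN.

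PACAP, the peptide encoded by Adcyap1, signals mainly through PAC1, the receptor encoded by Adcyap1r1, which couples to Gs and cyclic AMP and also to phospholipase C. Neurons of the VMH are a well-known site of Adcyap1 expression, and PACAP given into this region reduces feeding. BDNF is a neurotrophin whose receptor TrkB, encoded by Ntrk2, activates the ERK, PI3K and phospholipase C gamma cascades. Loss of either gene causes overeating and obesity in mice. Ntrk2 also yields truncated forms without the kinase domain that are abundant in astrocytes, and the values here were summed per gene, so the forms could not be separated.

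Adcyap1 (ENSMUSG00000024256) lies at chr17:93199017-93206537 and Adcyap1r1 (ENSMUSG00000029778) at chr6:55451978-55501451. Bdnf (ENSMUSG00000048482) lies at chr2:109674700-109727007 and Ntrk2 (ENSMUSG00000055254) at chr13:58806569-59133970. All 4 are protein-coding genes on the plus strand of GRCm38. For Bdnf, 14.4% of the annotated exon length overlapped Gm45346, a gene on the opposite strand, and 12.7% of its 50-base stretches recurred in a transcript of another gene. The reads carried no strand, so reads of Bdnf and Gm45346 could not be told apart there. The same overlap was 0% for the other members.

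The levels of the ligands Adcyap1 and Bdnf differed between nuclei in a like order, so the sequence before a start site of each is shown. The promoter table of RefSeq on GRCm38.p6 held 11 windows of 300 bases for the members: 2 for Adcyap1, 1 for Adcyap1r1, 7 for Bdnf and 1 for Ntrk2. They were searched on both strands for TGACG, the core of the cyclic AMP response element (CRE), for the full palindrome TGACGTCA, which contains that core, and for AAGGTCA, a site for the VMH factor steroidogenic factor 1. The core was found in both Adcyap1 windows, at the same base, and in 1 of the 7 Bdnf windows. It was not in the windows of Adcyap1r1 and Ntrk2, and 20.8% of all 32851 windows in the table held it. The palindrome and AAGGTCA were in 0 of the 11 windows, against 1.79% and 4.72% of all windows. The stretches below are the 250 bases before the start, 5′ to 3′ on the plus strand, with the core in capitals. For Adcyap1 the stretch is chr17:93198767-93199016 and the core begins 91 bases before the start. For Bdnf it is chr2:109692186-109692435, 35 bases before the start, and the core is read from the minus strand. Neither stretch overlaps an annotated exon. A match is a description of the letters and not a measured binding site.
Adcyap1: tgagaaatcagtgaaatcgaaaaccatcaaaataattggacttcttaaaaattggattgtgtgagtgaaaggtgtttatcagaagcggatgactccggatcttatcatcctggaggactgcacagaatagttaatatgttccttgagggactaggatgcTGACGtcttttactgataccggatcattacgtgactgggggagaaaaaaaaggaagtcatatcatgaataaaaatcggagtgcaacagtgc
Bdnf: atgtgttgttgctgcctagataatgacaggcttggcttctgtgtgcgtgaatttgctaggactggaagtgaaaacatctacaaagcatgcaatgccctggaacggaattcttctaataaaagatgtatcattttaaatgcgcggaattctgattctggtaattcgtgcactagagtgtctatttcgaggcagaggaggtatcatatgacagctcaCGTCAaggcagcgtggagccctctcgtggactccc

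The deposited values were RPKM, reads per kilobase of exon per M reads (M for mega). Levels of different genes can be compared only roughly, since the length of a gene is fixed, whichever of its forms are expressed. Annotated exons span 3777 bases in Adcyap1, 6601 in Adcyap1r1, 6217 in Bdnf and 19292 in Ntrk2. Before deposit, a small count had been added to every gene, of 5 reads in the mean library, and the estimated depth of the libraries ran from 1.33 to 13.2 M reads. Adcyap1 had a median of 273 estimated reads per library, with a range of 5.2 to 1886. Bdnf was the shallowest member, with a median of 46.6 estimated reads and a range of 0.76 to 250. The receptors were deep, with medians of 2259 estimated reads for Adcyap1r1 and 6324 for Ntrk2. Values of Bdnf in the ARC and DMH therefore carry the largest counting error. The VMH dissections carried their defining markers: the summed level of Nr5a1, Fezf1 and Nptx2 was 85.2 to 195 RPKM in VMH libraries and at most 13.5 RPKM in all others. The DMH markers Ppp1r17 and Gpr50 summed to 86.3 to 117 RPKM in the DMH and at most 37.1 RPKM in the ARC and VMH. In the PVN they summed to 12.9 to 28.9 RPKM in fed but 35.7 to 69.7 RPKM in fasted libraries. Of these markers only Ppp1r17 was called with fasting in the PVN, higher by 1.28 on the log2(RPKM + 1) scale (SE 0.25, limma adjusted p = 0.0345). The part of DMH tissue in the fasted PVN was not tested, which limits the fasted PVN values below.

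The first question was how the ligands and receptors are distributed over the 4 nuclei of fed mice. Adcyap1 was by far highest in the VMH, and Bdnf was highest in the VMH and PVN. Both receptors were expressed at similar, high levels everywhere. In limma, which tested all genes together, the 4 fed nuclei differed past an adjusted p of 0.1 for Adcyap1 (adjusted p = 2.05e-14) and Bdnf (adjusted p = 2.60e-07), but not for Adcyap1r1 (0.11) or Ntrk2 (0.190). By the same rule 12.4% of all genes tested differed, and 30.6% of 8837 genes with reads. Genes with reads had a mean of at least 5 RPKM and no lowest value shared between libraries of an inferred batch. Single libraries may still lack reads of such a gene. In these bulk samples, more cells of a type and more RNA per cell cannot be told apart.

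In the VMH of fed mice, Adcyap1 ranged from 86.5 to 116 RPKM with a median of 91.8 RPKM over 6 libraries. The PVN of fed mice held 8.58 to 23.8 RPKM with a median of 17.9 RPKM. In the DMH the 5 fed libraries had 4.23, 8.31, 8.41, 14.6 and 10.7 RPKM. The ARC was lowest, with 0.636, 2.08, 4.22, 7.15 and 3.53 RPKM. The VMH libraries of fed and fasted mice lay at 53.5 RPKM or more, and no library of another nucleus exceeded 23.8 RPKM. How many of all genes separate the VMH in this way was not counted. Adcyap1 was thus among the most abundant transcripts of the fed VMH, where 1.07% of the genes tested had a higher mean, against 51.1% in the fed ARC.

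**Figure D1:**
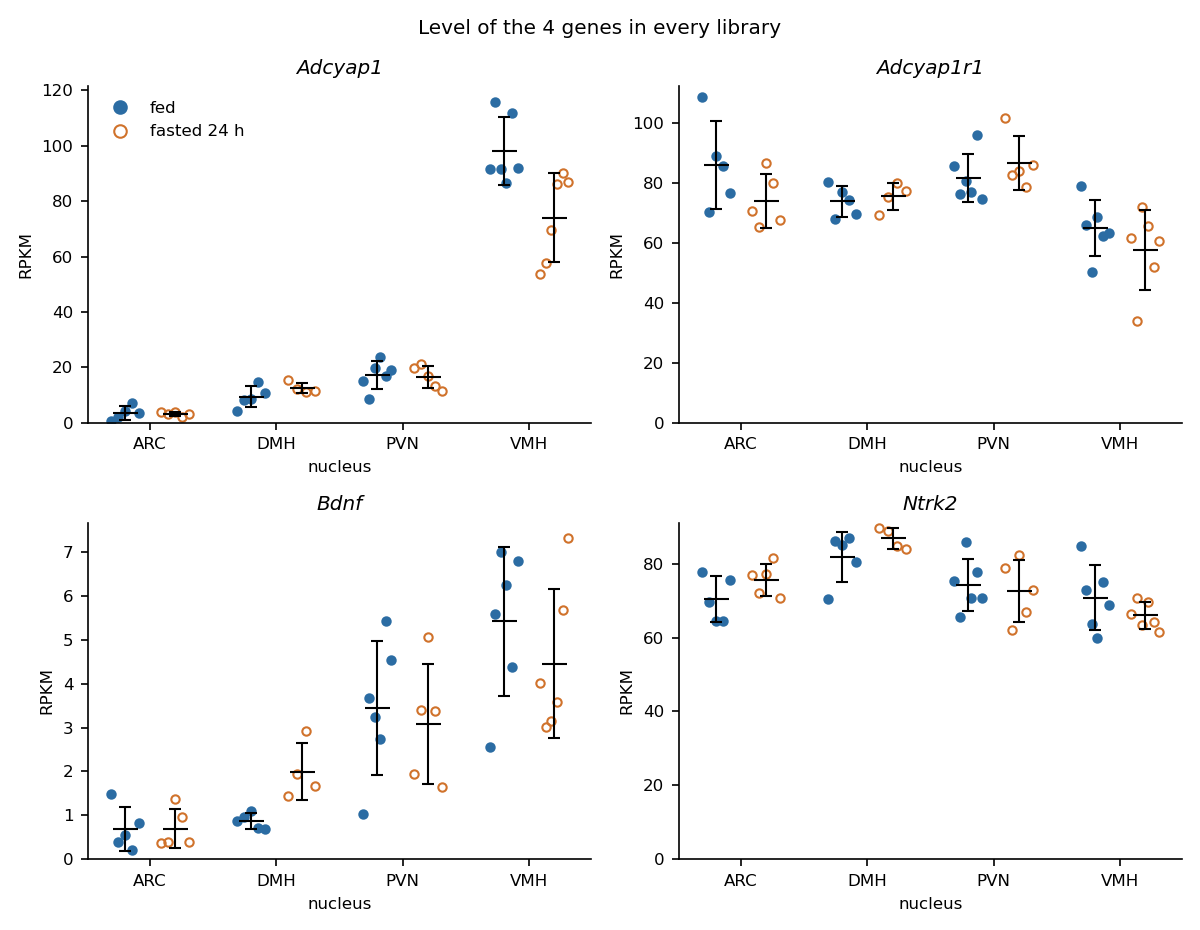
Level in RPKM (y axis) of Adcyap1, Adcyap1r1, Bdnf and Ntrk2 in each library, by nucleus (x axis). Filled points are fed and open points fasted mice, and bars give the mean and SD. Adcyap1 stood at 53.5 to 116 RPKM in the VMH and at most 23.8 RPKM elsewhere, while the ranges of Ntrk2 overlapped between all nuclei.

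The mean Adcyap1 level of fed mice was 98.2 ± 12.3 RPKM in the VMH (SD, n = 6), 17.2 ± 5.16 in the PVN (n = 6), 9.26 ± 3.81 in the DMH (n = 5) and 3.52 ± 2.45 in the ARC (n = 5). On the log2(RPKM + 1) scale, the VMH exceeded the PVN by 2.50 (SE 0.26, limma adjusted p = 6.71e-09), which is 5.64-fold with a 95% interval of 3.90 to 8.17. It exceeded the DMH by 3.35 and the ARC by 4.64, or 10.2-fold and 24.9-fold on that scale. Further down the order, the DMH exceeded the ARC by 1.29 (SE 0.29, adjusted p = 0.00773), while the PVN and DMH did not differ past the threshold (0.85, SE 0.28, adjusted p = 0.107, 95% interval 0.30 to 1.41). This last pair passed it under 5 other settings, and also without the fourth fed DMH library (1.03, adjusted p = 0.0449) or the second fed PVN library (1.03, adjusted p = 0.0333). Of the 6 pairs of nuclei 5 were called in fed mice. Of all genes, the same rule called 7.9% for VMH minus ARC, 5.24% for VMH minus DMH, 9.84% for VMH minus PVN, 4.13% for PVN minus ARC, 3.42% for PVN minus DMH and 2.79% for DMH minus ARC.

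In fasted mice the order of Adcyap1 was the same, with 74.0 ± 16.1 RPKM in the VMH (n = 6), 16.4 ± 4.04 in the PVN (n = 5), 12.5 ± 1.93 in the DMH (n = 4) and 3.15 ± 0.785 in the ARC (n = 5). The VMH exceeded the PVN by 2.11, the DMH by 2.45 and the ARC by 4.17 on the log2 scale (SE 0.28, 0.29 and 0.28), and 5 of the 6 pairs were again called. Of all genes, the rule called 8.91% for VMH minus ARC, 3.94% for VMH minus DMH, 9.24% for VMH minus PVN, 4.19% for PVN minus ARC, 3% for PVN minus DMH and 3.21% for DMH minus ARC. The 4 nuclei differed with a limma adjusted p of 8.37e-13, beside 11.9% of all genes called and 28.7% of the genes with reads. Within each of the 3 batches of libraries, the mean of the VMH was above that of each other nucleus in both states, except that batch 1 held 0 fasted DMH libraries.

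Bdnf was scarce, and its highest library had 7.33 RPKM. In the fed VMH it ranged from 2.55 to 7.0 RPKM with a median of 5.93, and in the fed PVN from 1.03 to 5.44 RPKM with a median of 3.46. In the fed DMH the 5 libraries had 0.860, 0.968, 1.11, 0.721 and 0.695 RPKM. In the fed ARC they had 1.47, 0.396, 0.540, 0.201 and 0.821 RPKM. The VMH libraries of both states thus did not overlap the ARC libraries of both states, while the PVN overlapped each of the other nuclei. The share of all genes without overlap between these nuclei was not counted. A library without any read of Bdnf would be listed near 0.176 RPKM, so the lowest ARC library was close to no reads.

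The mean Bdnf level of fed mice was 5.43 ± 1.7 RPKM in the VMH, 3.45 ± 1.52 in the PVN, 0.870 ± 0.172 in the DMH and 0.687 ± 0.495 in the ARC (SD, n = 6, 6, 5 and 5). The VMH exceeded the ARC by 1.93 (SE 0.25, limma adjusted p = 8.23e-07) and the DMH by 1.74 (SE 0.25, adjusted p = 9.70e-06) on the log2(RPKM + 1) scale, 3.80-fold and 3.33-fold. The PVN exceeded the ARC by 1.36 and the DMH by 1.17 (adjusted p = 0.000478 and 0.00426). The neighbours VMH and PVN differed by 0.57 with a 95% interval of 0.08 to 1.06 (adjusted p = 0.187), and DMH and ARC by 0.19 with an interval of -0.35 to 0.73 (adjusted p = 1). The VMH and PVN pair passed the threshold without the first fed VMH library (0.73, adjusted p = 0.0569) or the fifth fed PVN library (0.69, adjusted p = 0.0921). At these low values the added count and the +1 make the fold an understatement.

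In fasted mice the VMH had 4.46 ± 1.7 RPKM of Bdnf, the PVN 3.09 ± 1.37, the DMH 1.99 ± 0.649 and the ARC 0.693 ± 0.449. The 4 fasted nuclei differed (limma adjusted p = 5.29e-05). The VMH exceeded the ARC by 1.67 and the DMH by 0.84, and the PVN exceeded the ARC by 1.25. The VMH and DMH pair was near the threshold (adjusted p = 0.0963), and leaving out any of 7 single libraries or using any of 5 other settings took it to an adjusted p between 0.104 and 0.247.

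Adcyap1r1, the PAC1 receptor gene, was high in all nuclei, with fed means of 86.1 ± 14.7 RPKM in the ARC, 81.8 ± 7.93 in the PVN, 73.9 ± 5.05 in the DMH and 64.9 ± 9.35 in the VMH. Between 1.26% and 2.24% of the genes tested had a higher mean, depending on the group. The libraries of every pair of nuclei overlapped, and no neighbours in the fed order differed past the threshold. The VMH, where the ligand was highest, held the lowest receptor level: in fed mice it was 0.40 below the ARC (SE 0.13, limma adjusted p = 0.0527) and 0.34 below the PVN (SE 0.12, adjusted p = 0.0913). The difference from the ARC did not pass without ARC-Fed library 1 or 3 or VMH-Fed library 3 (adjusted p = 0.211, 0.114 and 0.156). That from the PVN did not pass when any of 10 of the 12 libraries was left out (adjusted p 0.101 to 0.247). In fasted mice the VMH was 0.61 below the PVN (SE 0.13, adjusted p = 0.000956), a pair in which 9.24% of all genes were called. It was also 0.39 below the ARC (adjusted p = 0.0603) and 0.42 below the DMH (adjusted p = 0.0955). The 4 fasted nuclei differed with an adjusted p of 0.00472. The lowest library was the second fasted VMH library at 33.9 RPKM, and without it the VMH minus ARC and VMH minus DMH differences of fasted mice were -0.24 and -0.28 (adjusted p = 0.208 and 0.247).

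Ntrk2, the TrkB gene, varied least. Its fed means were 81.9 ± 6.79 RPKM in the DMH, 74.4 ± 7.06 in the PVN, 70.8 ± 8.86 in the VMH and 70.4 ± 6.19 in the ARC, and its 42 values lay between 59.8 and 89.7 RPKM. In fed mice 0 of the 6 pairs passed an adjusted p of 0.1 in limma, and 2 had an unadjusted p under 0.05. In fasted mice the DMH exceeded the VMH by 0.39 (SE 0.08, adjusted p = 0.00210), a pair in which 3.94% of all genes were called, and the 4 nuclei differed (adjusted p = 0.00571). The fasted DMH libraries had 89.7, 88.8, 84.8 and 84.1 RPKM, all above the 6 fasted VMH libraries, which ranged from 61.5 to 70.6 RPKM. The share of all genes without overlap in this pair was not counted. Neighbours in the fasted order of Ntrk2 did not differ past the threshold.

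**Figure D2:**
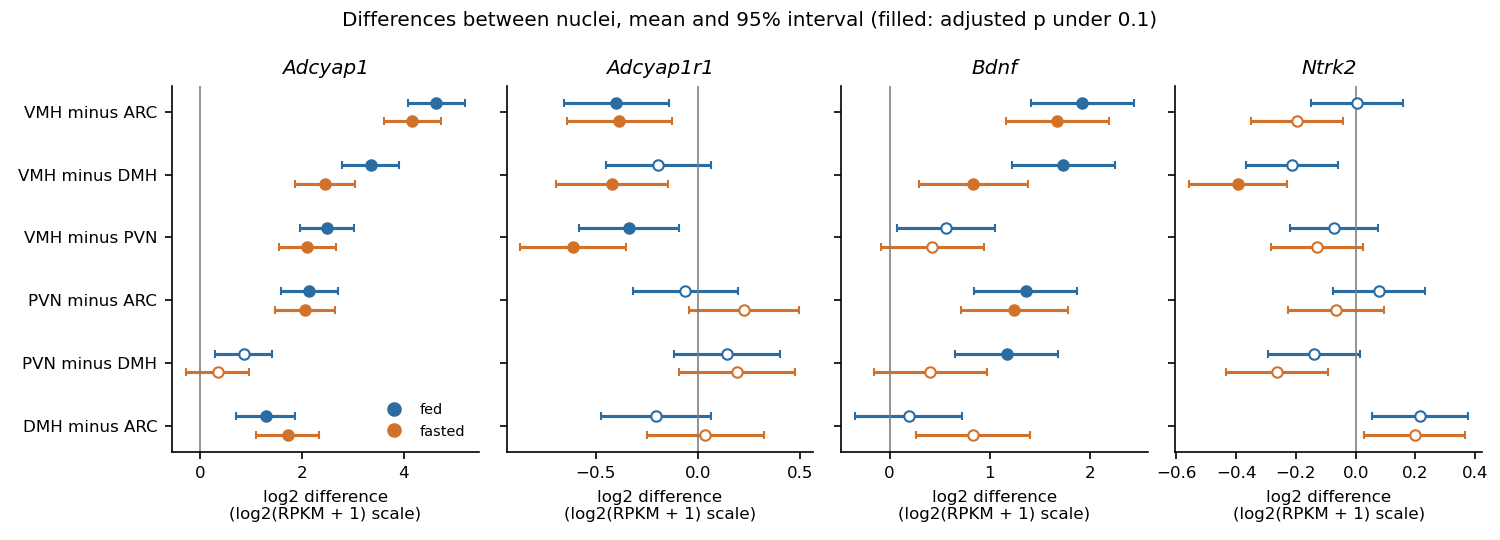
Difference between pairs of nuclei on the log2(RPKM + 1) scale (x axis) for each gene, in fed and fasted mice, with 95% intervals. Filled points had a limma adjusted p under 0.1. Adcyap1 was higher in the VMH than in every other nucleus by 2.11 to 4.64, and the Adcyap1r1 differences involving the VMH lay below 0.

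Cell type markers also differed between the dissections. The summed level of 6 neuronal markers was 1354 ± 63.1 RPKM in the fed VMH (range 1260 to 1440), 918 ± 69.8 in the PVN, 837 ± 40.7 in the DMH and 704 ± 28.3 in the ARC. This is the same order as that of Adcyap1 and Bdnf over the nuclei, with a smaller spread, and the part of neuronal content in the levels of these ligands was not tested. The summed level of 8 astrocyte markers was 563 ± 81.7 RPKM in the fed VMH, 515 ± 45.5 in the DMH, 434 ± 33.4 in the PVN and 416 ± 30.8 in the ARC. The order of Ntrk2, with the DMH first, was not the same.

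Ligand and receptor levels in RPKM were then set against each other within each library. The ratios are rough, since the fixed length of a gene does not follow the forms expressed. Adcyap1 exceeded Adcyap1r1 in 10 of 42 libraries, all from the VMH. In the fed VMH the ratio was 1.16 to 1.82 with a median of 1.61, so the ligand exceeded the receptor in 6 of 6 libraries, and in the fasted VMH it was 0.866 to 1.74 with the ligand above in 4 of 6. In fed mice the median ratio was 0.212 in the PVN, 0.122 in the DMH and 0.0461 in the ARC. Bdnf was below Ntrk2 in every library, with ratios of 0.00312 to 0.119. The median ratio of Bdnf to Ntrk2 in fed mice was 0.0877 in the VMH, 0.0474 in the PVN, 0.0112 in the DMH and 0.00838 in the ARC.

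**Figure D3:**
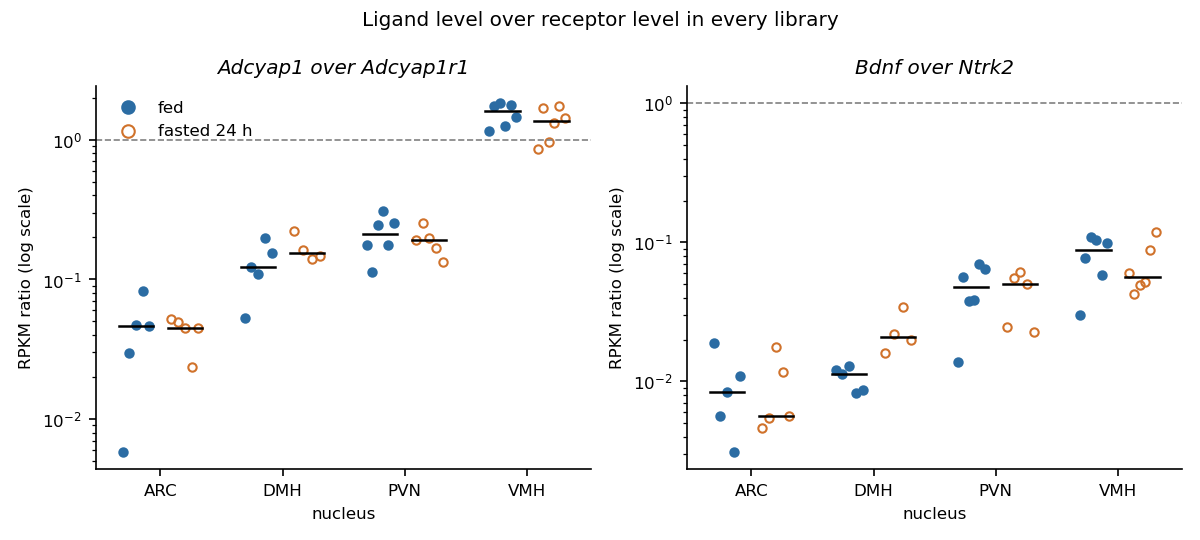
RPKM of the ligand over RPKM of its receptor (y axis, log scale) in each library, by nucleus (x axis), with the median of each group as a bar and equal levels as a dashed line. Adcyap1 reached its receptor level in the VMH alone, and Bdnf stayed at or below 0.119 of the Ntrk2 level.

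The next question was whether a 24-hour fast changed the members within a nucleus. Of the 16 tests of a member in a nucleus, 0 passed a limma adjusted p of 0.1, 1 had an unadjusted limma p under 0.05, and 2 had an exact permutation p under 0.05. Few genes passed at all: 0.0566% of those tested for the ARC, 0.131% for the VMH, 0.0238% for the DMH and 0.0715% for the PVN. At an unadjusted p under 0.05 the shares were 7.5%, 7.31%, 6.48% and 5.53%, and at an exact permutation p under 0.05 they were 4.02%, 4.39%, 3.74% and 4.18%. The adjusted calls, 19, 44, 8 and 24 genes, depended on single libraries: with 1 left out they ran from 6 to 31, 16 to 64, 6 to 89 and 11 to 48. The exact permutation p-values below are two-sided and were not corrected for the 16 tests.

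Adcyap1 had lower values in the fasted VMH. The fed libraries had a lowest, median and highest value of 86.5, 91.8 and 116 RPKM, and the fasted libraries 53.5, 77.9 and 90.3 RPKM. All 6 fasted libraries lay below the fed mean, although the ranges overlapped. The difference was -0.42 on the log2(RPKM + 1) scale (SE 0.26, 95% interval -0.96 to 0.11, limma unadjusted p = 0.116, adjusted p = 0.70). The exact permutation p, from the VMH libraries alone, was 0.00649. Limma shared its estimate of spread over all groups, and on the VMH libraries alone its unadjusted p was 0.0153 (adjusted p = 0.983). The exact p stayed between 0.00433 and 0.0433 without any single VMH library. Within batches the difference was -0.88 in batch 1, -0.20 in batch 2 and -0.19 in batch 3, each from 2 fed and 2 fasted libraries. The low fasted libraries of batch 1, at 53.5 and 57.6 RPKM, also had the lowest estimated depths of the fasted VMH, at 1.33 and 2.06 M reads, and with log2 depth as a term the difference was -0.46 (limma adjusted p = 0.629).

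The summed neuronal markers of the VMH overlapped between the states, at 1260 to 1440 RPKM in fed and 1107 to 1498 RPKM in fasted libraries. Of the 6 neuronal markers 0 passed the limma test, and 4 had differences below 0 (median of the 6 -0.04). The 3 VMH markers summed to 85.2 to 195 RPKM in fed and 93.2 to 179 RPKM in fasted libraries. Of the 8 astrocyte markers only Aqp4, the astrocyte water channel, was called, lower in the fasted VMH by 0.94 (SE 0.19, adjusted p = 0.0477). The differences of other cell type markers were mostly below 0: 6 of 8 astrocyte markers (median -0.17), 6 of 6 oligodendrocyte markers (median -0.06), 4 of 6 microglial markers (median -0.11), 3 of 5 endothelial markers (median -0.30) and 6 of 6 tanycyte and ependymal markers (median -0.20). The part of neuronal or other cell content in the Adcyap1 values was not tested.

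Bdnf had higher values in the fasted DMH. The fed libraries had 0.860, 0.968, 1.11, 0.721 and 0.695 RPKM, and the fasted libraries 1.45, 1.93, 2.92 and 1.68 RPKM. Every fasted library was above every fed library. This was the sole member and nucleus of the 16 without overlap, and 1.15% of all genes tested did not overlap in the DMH (ARC 0.742%, VMH 0.277% and PVN 0.402%). The difference was 0.66 on the log2(RPKM + 1) scale (SE 0.28, 95% interval 0.09 to 1.23, limma p = 0.0240, adjusted p = 0.665), and the exact permutation p was 0.00794, the smallest that 5 against 4 libraries can give. With a pseudocount of 0.1 in place of 1 the difference was 1.08, and with 5 it was 0.25 (limma p = 0.0746, exact permutation p = 0.00794). With 1 library left out it ran from 0.52 to 0.75, with an exact permutation p of 0.0179 to 0.0286. The lowest difference, without DMH-Fast library 3, had a limma p of 0.0937. Because the groups did not overlap, each of these exact p-values was also the smallest its libraries can give. They add no support beyond the lack of overlap itself.

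These DMH values rested on few reads, 9.5 to 22.4 estimated reads in fed and 52.3 to 124 in fasted libraries. The estimated depth also differed in this nucleus, with 3.91 ± 0.862 M reads in fed and 7.38 ± 4.0 M reads in fasted libraries (exact permutation p = 0.0238). With log2 depth as a term the difference was 0.62 (unadjusted p = 0.0467). The depths overlapped little: 1 fed library, at 5.05 M reads and 0.721 RPKM, was deeper than the fasted libraries at 4.78 and 4.87 M reads, which had 2.92 and 1.93 RPKM. Within batches the difference was 0.40 in batch 2 and 0.92 in batch 3, each from 2 fed and 2 fasted libraries, and batch 1 held 0 fasted DMH libraries. The 6 neuronal markers summed to 804 to 886 RPKM in fed and 848 to 958 RPKM in fasted DMH libraries, with 0 of 6 called. The 3 VMH markers summed to 4.73 to 12.9 RPKM in fed and 6.06 to 13.5 RPKM in fasted DMH libraries, and the part of neighbouring tissue was not tested.

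**Figure D4:**
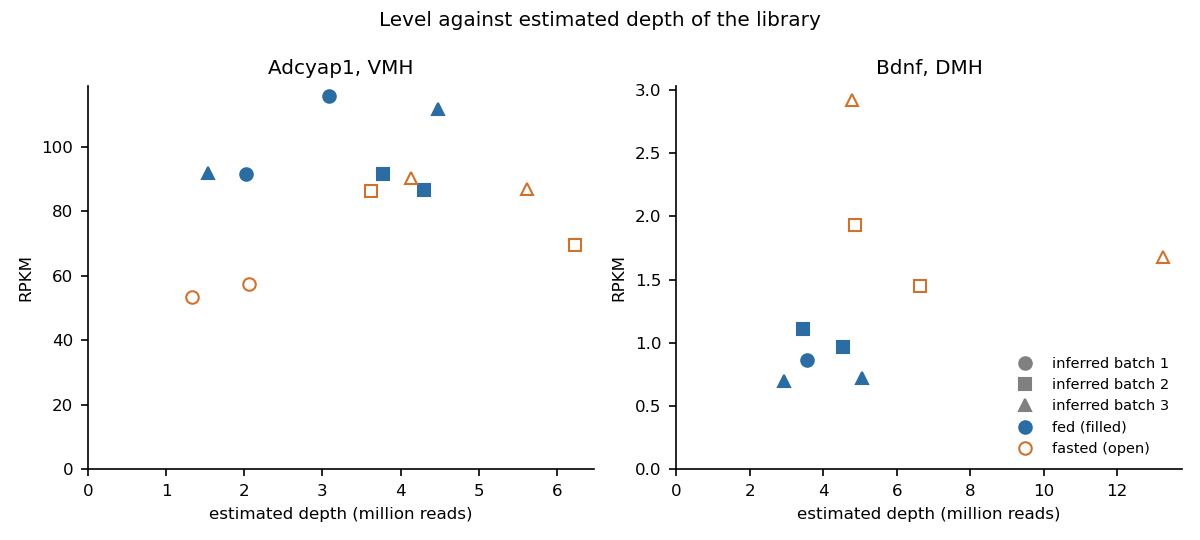
RPKM (y axis) against the estimated depth of the library in M reads (x axis), for Adcyap1 in the VMH and Bdnf in the DMH. Filled points are fed and open points fasted libraries, and the shape gives the inferred batch. The 4 fasted DMH libraries lay above the 5 fed ones for Bdnf, and the 2 lowest values of Adcyap1 were fasted libraries of batch 1.

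Elsewhere the Adcyap1 difference was 0.04 (ARC), -0.03 (PVN) and 0.48 (DMH), with 95% intervals of -0.54 to 0.63, -0.59 to 0.52 and -0.14 to 1.10. In the DMH all 4 fasted libraries, at 11.2 to 15.3 RPKM, lay above the fed mean on the log scale, but the exact permutation p was 0.151. The value rested on single libraries: the difference was 0.65 without DMH-Fed library 4, at 14.6 RPKM (exact permutation p = 0.0286), and 0.26 without DMH-Fed library 1, at 4.23 RPKM (exact permutation p = 0.20). Within batches it was 0.65 in batch 2 and -0.14 in batch 3. Bdnf differed by 0.01 (ARC), -0.24 (VMH) and -0.10 (PVN), and the intervals included 0. Adcyap1r1 differed by -0.21 (ARC), -0.19 (VMH), 0.03 (DMH) and 0.08 (PVN). Ntrk2 differed by 0.11, -0.09, 0.09 and -0.04 in the ARC, VMH, DMH and PVN. The 95% intervals of Ntrk2 were the narrowest of the members and lay between -0.24 (in the VMH) and 0.27 (in the ARC).

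**Figure D5:**
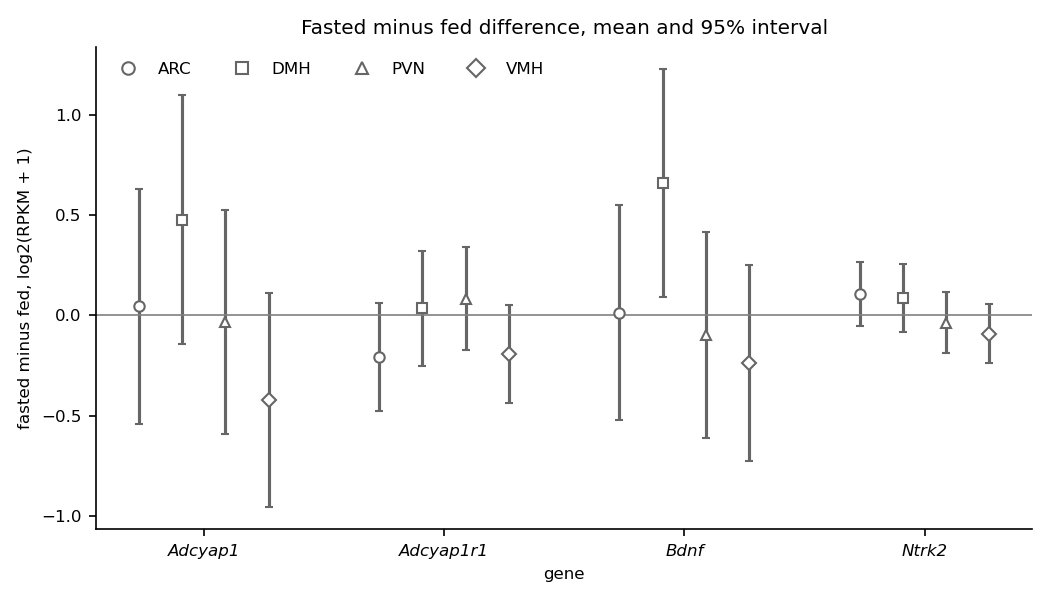
Fasted minus fed difference on the log2(RPKM + 1) scale (y axis) for each gene (x axis) and nucleus, with 95% intervals from limma. Open symbols had an adjusted p of 0.1 or more, which all 16 had, and the interval of Bdnf in the DMH alone excluded 0.

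The ratio of ligand to receptor was tested as log2(ligand + 1) minus log2(receptor + 1). Of 8 such tests, 1 had an exact permutation p under 0.05. The Bdnf to Ntrk2 ratio of the DMH was -5.47 ± 0.166 in fed and -4.90 ± 0.320 in fasted mice, a difference of 0.57 without overlap (exact permutation p = 0.00794). With a pseudocount of 0.1 in place of 1 this difference was 0.99. The ratio holds the same Bdnf values as above, and Ntrk2 differed by 0.09 in the DMH. Its test therefore largely repeats that of Bdnf. The Adcyap1 to Adcyap1r1 ratio of the VMH was 0.594 ± 0.279 in fed and 0.363 ± 0.411 in fasted mice, a difference of -0.23 (exact permutation p = 0.279). The mean level of the receptor was also lower in the fasted VMH, at 57.7 ± 13.4 against 64.9 ± 9.35 RPKM. That difference, -0.19 on the log2 scale, did not pass the test and was -0.05 without VMH-Fast library 2.

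Whether the fasting difference itself varied between nuclei was tested as an interaction. Its limma adjusted p was 1 for all 4 members, with unadjusted p-values of 0.188 for Adcyap1, 0.271 for Adcyap1r1, 0.108 for Bdnf and 0.213 for Ntrk2, and 0.00596% of all genes were called (4.39% at an unadjusted p under 0.05). The largest single contrasts were VMH minus DMH, at -0.90 for both Adcyap1 (SE 0.40, unadjusted p = 0.0320) and Bdnf (SE 0.37, unadjusted p = 0.0203), with an adjusted p of 0.907 for each.

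Adcyap1 and Bdnf were alike over nuclei but not within them. The Pearson correlation of their log2 values was 0.94 over the 8 group means and 0.80 over the 42 libraries, but -0.13 after group means were removed. Adcyap1 and its receptor correlated at -0.70 over group means, and Bdnf and Ntrk2 at -0.42. These are descriptions, and the points share mice, batches and the order of neuronal content.

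Among the 11436 other genes with a symbol, a mean of at least 5 RPKM and values that varied between libraries, the patterns most like Adcyap1 over the 42 libraries were those of Cdh13 (r = 0.95), Snap25 (0.95), Cnr1 (0.95), Slc17a6 (0.94) and Fezf1 (0.94). Cdh13 is a cadherin, Snap25 a synaptic SNARE protein, Cnr1 the cannabinoid receptor CB1, Slc17a6 the glutamate transporter VGLUT2, and Fezf1 a transcription factor of VMH neurons. After group means were removed, Cdh13 correlated at 0.55 and the other 4 at 0.23 to 0.33. The patterns most like Bdnf were those of Slc24a2 (0.88), Napb (0.88), Nefl (0.86), Nefm (0.85) and Slc17a6 (0.84). Nefl and Nefm encode neurofilament subunits, and Slc17a6 was near the top for both ligands. For Adcyap1r1 they were Tsn (0.80), Golgb1 (0.78), Flii (0.78), Eif3a (0.77) and Mlec (0.76). For Ntrk2 they included Rorb (0.64), Cck (0.64), Npvf (0.63) and Gpr50 (0.62), and Gpr50 was used here as a marker of the DMH.

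The related ligands of both families were mostly near their no-read values. Of the PACAP family, Ghrh, the growth hormone-releasing hormone, was high in the fed ARC (199 ± 55.2 RPKM) and low in the VMH (4.82 ± 3.58), the reverse of Adcyap1, and intermediate in the PVN (31.3 ± 15.1) and DMH (64.9 ± 30.5). The difference between VMH and ARC was -5.28 (limma adjusted p = 8.96e-12). Secretin (Sct) averaged 2.10 to 3.81 RPKM in fed nuclei and did not pass the test over the nuclei. Vip and glucagon (Gcg) averaged at most 0.847 RPKM in fed nuclei and were not tested. The other receptors of the family were scarce beside Adcyap1r1: Vipr2 had fed means of 0.513 to 1.77 RPKM, highest in the DMH (adjusted p over the nuclei 0.0733), Sctr and Ghrhr 0.686 to 1.12 RPKM, and Vipr1, not tested, at most 0.299 RPKM.

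Among neurotrophins, Ntf3 averaged 0.796 to 1.04 RPKM and Ntf5, not tested, 0.577 to 0.664 RPKM in fed nuclei, and Ntf3 did not pass the test over the nuclei. TrkC (Ntrk3), the receptor for the product of Ntf3, averaged 17.3 to 25.2 RPKM in fed nuclei and did not pass the test over them (limma adjusted p = 0.143). Sortilin (Sort1), which sorts BDNF in the secretory pathway, was highest in the fed VMH (23.0 ± 5.02 RPKM) and lowest in the ARC (11.4 ± 1.72), a difference of 0.94 (limma adjusted p = 2.58e-05). Sorcs2, a receptor for pro-BDNF, was lowest in the ARC (2.90 ± 0.664 RPKM) and 5.29 to 6.15 RPKM elsewhere. The neurotrophin receptor p75 (Ngfr) was 0.380 ± 0.0586 RPKM in the fed VMH and 3.03 ± 1.48 in the ARC (difference -1.48, adjusted p = 0.0161).

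The wider pathways were described by gene lists: 34 genes of the PACAP system, of which 31 were tested, 45 of the BDNF system, of which 43 were tested, and 9 activity- and BDNF-responsive genes, all tested. In fed mice 17 of 31, 15 of 43 and 7 of 9 differed over the 4 nuclei. The shares were 12.4% of all genes and 30.6% of the genes with reads. All 4 peptide-processing genes were among the list genes that differed. Prohormone convertase 1 (Pcsk1) was 39.7 ± 8.57 RPKM in the fed PVN and 8.71 ± 2.91 in the VMH, while prohormone convertase 2 (Pcsk2) was 38.3 ± 3.22 RPKM in the VMH, 39.8 ± 5.55 in the PVN and 17.2 ± 0.645 in the ARC.

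Downstream of PAC1, 9 of 18 genes for G proteins and cyclic AMP signalling differed over the fed nuclei. The shares were 12.4% of all genes and 30.6% of the genes with reads. Gnas, the Gs alpha subunit, was lowest in the VMH (61.1 ± 2.42 RPKM) and highest in the PVN (112 ± 21.8), and Plcb4, a phospholipase C, was 46.7 ± 5.28 RPKM in the VMH and 17.9 ± 2.72 in the ARC. Of the CREB family 2 of 4 differed: the coactivator Crtc1 was highest in the VMH (17.3 ± 1.36 RPKM, against 7.78 to 10.4), and Crem was 2.61 ± 0.655 RPKM in the VMH and 4.18 ± 0.862 in the PVN.

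Downstream of TrkB, 4 of 13 adaptor genes, 5 of 11 ERK cascade genes and 3 of 8 PI3K cascade genes differed. Of all genes 12.4% differed, and 30.6% of the genes with reads. Rps6ka2, a kinase of the ERK cascade, was highest in the VMH (28.7 ± 5.48 RPKM, against 12.7 to 18.7). The adaptor Shc1 was 4.02 and 4.11 RPKM in the ARC and PVN and 1.11 and 1.15 RPKM in the DMH and VMH, and Frs3 was lowest in the VMH at 2.42 ± 1.01 RPKM. Pik3r1 and Mtor of the PI3K cascade had their highest means in the VMH, 31.9 ± 1.39 and 19.0 ± 3.37 RPKM. Of the 3 regulators of Bdnf transcription 0 passed the limma test in fed mice and 1 had an unadjusted p under 0.05, and for the 2 pro-peptide cleavage genes the counts were also 0 and 1. Of the responsive genes, Vgf was lowest in the VMH (13.9 ± 6.15 RPKM) and Egr1 highest in the PVN (58.5 ± 19.1 RPKM).

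With fasting, 0 genes of these lists passed the limma adjusted p of 0.1 in any nucleus. At an unadjusted p under 0.05, the counts in the ARC, VMH, DMH and PVN were 3, 5, 0 and 3 of 31 for the PACAP system, 3, 3, 1 and 4 of 43 for the BDNF system and 3, 1, 0 and 2 of 9 for the responsive genes. Of all genes tested, 7.5%, 7.31%, 6.48% and 5.53% had such a p in these nuclei. The median change in the VMH was -0.09 for the PACAP system and -0.07 for the BDNF system, where the median of the 8837 genes with reads was -0.03. In the DMH the medians were -0.02 and -0.01 beside 0.01, and the responsive genes had medians of 0.31 (ARC), -0.17 (VMH), 0.19 (DMH) and -0.07 (PVN). The smallest unadjusted p of the lists was that of Crem in the VMH, with a difference of -0.65 (SE 0.17, unadjusted p = 0.000478, adjusted p = 0.18). Crem, which encodes activators and repressors that bind the CRE, was picked here for its p and is given as a value.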

How the data were processed

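RNA from laser-captured nuclei was amplified and sequenced as unstranded single-end reads. Per the labels and the study's methods, the authors aligned and counted the reads and deposited RPKM values corrected for batch. Their processing notes name CASAVA 1.7, TopHat2 2.0.11, Cufflinks 2.2.1, limma and the build GRCm38. The values hold an added count (mean 5 reads, 1.46 to 14.5), so no value is 0 and low genes are compressed. Depth (1.33 to 13.2 M reads) and the 3 batches (10, 16 and 16 libraries) were inferred from low values. These were the lowest values, shared by genes without reads, and the steps above them. Of these steps, 97.8% to 98.9% per library were whole reads within 0.05. The mean log2 level of a gene was nearly equal in all batches (median largest deviation 4.61e-08). Batch 1 was unbalanced, with 2 fed and 2 fasted VMH but 1 fed and 0 fasted DMH libraries. Genes that differ between nuclei can thus be shifted between batches, and the size of such shifts was not measured. The study removed outlying samples before deposit.

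Groups came from the labels. Values were tested as log2(RPKM + 1) with limma 3.58.1 (R 4.3.3), a group-means model over all 42 libraries with an intensity trend, on 33579 genes with at least 1 RPKM in at least 4 libraries, Benjamini-Hochberg adjusted, threshold 0.1. Members were also tested by exact permutation. The planned adjustment of these over the members alone is not given. The fit was tested on simulated data. Intervals are 95%. Python 3.11.15, NumPy 2.4.6 and pandas 2.3.3 were used.

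Members and lists were chosen with earlier results of these data known. Named were the members, for each list the 2 genes with the smallest adjusted p over fed nuclei where past 0.1, any list gene called with fasting, related ligands and receptors, and the 5 genes most correlated with each member, and some genes that these rules name are not reported here. Cell type and nucleus markers were summed. Alternatives changed the pseudocount, filter, scaling, weights, trend, batch, depth, replicate block or libraries used, or left out 1 library.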

Additional observations from a re-analysis of the deposited data

Results flagged for a closer look

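The fasting differences of Adcyap1 had opposite signs in the VMH and DMH, and neither passed the limma test. All 6 fasted VMH libraries lay below the mean of the fed VMH libraries, and all 4 fasted DMH libraries lay above the mean of the fed DMH libraries. The VMH minus DMH difference of the fasting change was -0.90 on the log2(RPKM + 1) scale (SE 0.40), with an unadjusted limma p of 0.0320 and an adjusted p of 0.907. Within batches the DMH difference was 0.65 in batch 2 but -0.14, the sign of the VMH, in batch 3, and batch 1 held 0 fasted DMH libraries. With batch as a term, the fasting difference was 0.39 in the DMH and -0.42 in the VMH. The test over all 4 nuclei gave an adjusted p of 1, and also of 1 with estimated depth, which was higher in the fasted DMH libraries, as a term. Of 32 groups of a member's values, 0 held a library that stood apart from its group by Dixon's criterion, where chance would give 1.6.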

How the results depend on the processing

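Over the results above, 998 values recomputed under other settings kept their direction and their side of the threshold, 28 newly passed, 16 no longer passed and 11 changed direction. With 1 library left out the counts were 1162, 16, 30 and 52. None of the 63 values that changed direction was past a threshold (smallest unadjusted p = 0.302). The planned median-ratio factors were 0 in every library, so the values under that setting equal the main ones and could not change. They are included in the 998. A scaling on the 8837 genes with reads (log2 factors -0.0870 to 0.0845) was therefore added, chosen after seeing the data. Same-numbered libraries showed little shared deviation from their group means (correlations -0.13 to 0.09). Noise between libraries can hide a shared mouse, so this does not settle whether the numbers pair them.

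Bdnf, VMH minus DMH, fasted mice, no longer passed with a pseudocount of 0.1 (1.09, adjusted p = 0.202), no filter (0.84, 0.104), a depth term (0.89, 0.131), the replicate block (0.73, 0.247) or own libraries only (0.84, 0.129), and ranged from 0.71 to 0.98 with 1 library left out. Bdnf, DMH minus ARC, fasted mice, passed with a pseudocount of 0.1 (1.53, adjusted p = 0.0494; left-out range 0.70 to 0.97), and Bdnf, VMH minus PVN, fed mice, ranged from 0.36 to 0.73. Adcyap1, PVN minus DMH, fed mice, passed with a pseudocount of 5 (0.64), a mean of at least 5 RPKM (0.85), array weights (0.88), a batch term (0.92) or the replicate block (0.84), with a range of 0.63 to 1.03. The Adcyap1 fasting change in the DMH ranged from 0.26 to 0.65.

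Adcyap1r1, VMH minus PVN, fed mice, no longer passed with no filter (-0.34), a batch term (-0.34) or a depth term (-0.32), and ranged from -0.39 to -0.27, while VMH minus ARC ranged from -0.47 to -0.31. In fasted mice Adcyap1r1, VMH minus DMH, no longer passed with no filter (-0.42), array weights (-0.33), a depth term (-0.39), the replicate block (-0.43) or own libraries only (-0.42), and ranged from -0.49 to -0.28. Adcyap1r1, VMH minus ARC, no longer passed with array weights (-0.30), a depth term (-0.37) or own libraries only (-0.39), and ranged from -0.46 to -0.24. Over the 4 fed nuclei Adcyap1r1 passed with a mean of at least 5 RPKM (adjusted p = 0.0716), quantile normalization (0.0612), array weights (0.0330), the replicate block (0.0944) or own libraries only (0.0647), and ranged from 0.0561 to 0.304.

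Ntrk2 over the 4 fed nuclei passed with quantile normalization (adjusted p = 0.0186) or the added scaling (0.0708), and ranged from 0.0608 to 0.387. In fed mice Ntrk2, VMH minus DMH, passed with a mean of at least 5 RPKM (-0.21), quantile normalization (-0.29), the added scaling (-0.23) or array weights (-0.23; range -0.26 to -0.17), and DMH minus ARC with quantile normalization (0.29) or the added scaling (0.26; range 0.18 to 0.27). In fasted mice Ntrk2, VMH minus ARC, passed with a mean of at least 5 RPKM (-0.20), array weights (-0.21) or own libraries only (-0.20). Ntrk2, PVN minus DMH, passed with a mean of at least 5 RPKM (-0.26), quantile normalization (-0.30), the added scaling (-0.27), array weights (-0.27), a depth term (-0.28) or own libraries only (-0.26; range -0.31 to -0.21). The cause of these changes was not tested.

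The values that changed direction were near 0. With other settings these were Adcyap1 with fasting in the ARC (-0.0229 with a pseudocount of 5, -0.13 with array weights), Bdnf with fasting in the ARC (-0.00841 with quantile normalization), Ntrk2 with fasting in the PVN (0.00102 with quantile normalization) and Ntrk2, VMH minus ARC, fed mice (-0.00146 with quantile normalization, -0.00414 with array weights, -0.00290 with a batch term, -0.0146 with a depth term). With 1 library left out, the fasting differences ran from -0.27 to 0.30 for Adcyap1 in the ARC, -0.21 to 0.077 for Adcyap1 in the PVN, -0.12 to 0.16 for Bdnf in the ARC, -0.31 to 0.042 for Bdnf in the PVN and -0.083 to 0.018 for Ntrk2 in the PVN. The ratio differences ran from -0.16 to 0.51 for Adcyap1 to Adcyap1r1 in the ARC, -0.22 to 0.021 for Bdnf to Ntrk2 in the ARC and -0.28 to 0.082 in the PVN. Between nuclei the ranges were -0.00656 to 0.094 for Adcyap1r1, DMH minus ARC, fasted mice, -0.13 to 0.024 for Adcyap1r1, PVN minus ARC, fed mice, and -0.049 to 0.0501 for Ntrk2, VMH minus ARC, fed mice.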
